A study of Mus musculus with 24 samples.

Results

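The 6 ATAC-seq libraries of resting wildtype (WT) bone marrow-derived macrophages (BMDMs), labelled WT_unstimulated, were described for the chromatin that was open before LPS and in the presence of the aryl hydrocarbon receptor (AhR). ATAC-seq uses a transposase that cuts and tags DNA where it is not covered by nucleosomes, so that a pile of fragments, called a peak, marks an open region. The members were the 6 peak lists and the 6 count columns of this group, out of 24 libraries in 4 groups of 6, and the regions were the 184158 consensus peaks of the whole series. The other groups were AhR-KO_unstimulated, WT_LPS and AhR-KO_LPS. WT marrow came from C57/B6/J mice and AhR-KO marrow from B6.129-Ahr tm1Bra/J mice, which carry an Ahr allele disrupted in all tissues and are a separate strain. All 4 groups shared the same culture, with TGF-β (2 ng/ml), GM-CSF (10 ng/ml) and serum (10%) to obtain alveolar-like macrophages, so no group shows macrophages grown without these factors. LPS was given at 97 EU/ml on day 6 for 24 h. A calcium ionophore at 5 µM for 10 min is described after stimulation, and the labels attach this text to every library, so that it is not stated whether unstimulated cultures also received it. The study's animals were of both sexes, and each group stood for 6 animals of 1 experiment.

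Macrophages are phagocytes whose identity is set by a small number of transcription factors. PU.1, encoded by Spi1, opens chromatin at myeloid enhancers together with C/EBP, RUNX and AP-1 proteins, and the receptor for M-CSF (Csf1r) carries the survival signal. Alveolar macrophages, which clear surfactant in the lung, depend in addition on GM-CSF, TGF-β and the nuclear receptor PPARγ (Pparg), and carry the integrin CD11c (Itgax). Promoters near transcription start sites (TSSs) are often open in many cell types, above all where they are rich in CpG dinucleotides, while distal elements vary more between cell types.

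Sequences are shown first for promoters that carry the main contrasts, as the 250 bases before the annotated start, read 5′ to 3′ on the gene's strand. They were taken from the RefSeq promoters of GRCm38.p6, which held 186 of the 246 genes of the lists used below. Capitals mark searched letters on either strand: GGAAGT (the ETS core, the family of PU.1), TGANTCA (AP-1), TTGCNNAA (C/EBP), GGGCGG (SP1), CCAAT (NFY) and GCGCATGC (NRF1). In the same 250 bases of 32851 RefSeq promoters, the ETS core was found in 19.7%, AP-1 in 6.75%, C/EBP in 9.56%, SP1 in 32.7%, NFY in 33.8% and NRF1 in 2.26%. The first 6 belong to macrophage, alveolar and eicosanoid genes whose TSS was open in all 6 lists. Itgax lies at chr7:128129300-128129549 on the plus strand, Cd68 at chr11:69666171-69666420 on the minus strand, Laptm5 at chr4:130913066-130913315 (plus), Pparg at chr6:115421816-115422065 (plus), Alox5 at chr6:116461179-116461428 (minus) and Siglecf at chr7:43351091-43351340 (plus).
Itgax: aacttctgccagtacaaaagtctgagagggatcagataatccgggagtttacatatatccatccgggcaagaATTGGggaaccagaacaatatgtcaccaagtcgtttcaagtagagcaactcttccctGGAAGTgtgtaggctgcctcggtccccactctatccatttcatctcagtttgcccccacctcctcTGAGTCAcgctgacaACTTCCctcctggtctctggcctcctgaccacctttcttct
Cd68: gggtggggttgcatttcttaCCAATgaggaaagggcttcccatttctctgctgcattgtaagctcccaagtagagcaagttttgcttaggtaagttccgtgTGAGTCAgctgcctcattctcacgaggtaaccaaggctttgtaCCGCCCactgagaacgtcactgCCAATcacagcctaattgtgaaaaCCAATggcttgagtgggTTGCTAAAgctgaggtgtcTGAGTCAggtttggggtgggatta
Laptm5: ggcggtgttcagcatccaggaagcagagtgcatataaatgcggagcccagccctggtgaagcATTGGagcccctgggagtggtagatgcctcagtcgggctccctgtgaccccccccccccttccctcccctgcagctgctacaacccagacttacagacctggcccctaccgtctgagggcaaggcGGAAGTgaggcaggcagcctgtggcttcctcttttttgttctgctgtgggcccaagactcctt
Pparg: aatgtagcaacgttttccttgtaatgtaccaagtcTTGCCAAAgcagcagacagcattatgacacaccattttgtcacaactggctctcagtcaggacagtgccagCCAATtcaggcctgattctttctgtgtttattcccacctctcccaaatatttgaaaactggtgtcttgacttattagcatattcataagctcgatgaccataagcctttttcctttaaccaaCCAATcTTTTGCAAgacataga
Alox5: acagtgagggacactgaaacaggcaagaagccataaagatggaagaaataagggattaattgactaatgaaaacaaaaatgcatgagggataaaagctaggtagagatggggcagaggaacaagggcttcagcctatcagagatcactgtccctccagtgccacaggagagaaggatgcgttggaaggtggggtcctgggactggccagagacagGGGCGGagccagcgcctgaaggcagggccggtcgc
Siglecf: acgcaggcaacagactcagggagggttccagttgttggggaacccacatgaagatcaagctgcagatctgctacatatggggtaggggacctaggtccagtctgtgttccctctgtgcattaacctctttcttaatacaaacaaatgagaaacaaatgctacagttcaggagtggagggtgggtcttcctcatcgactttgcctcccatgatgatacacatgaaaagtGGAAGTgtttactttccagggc

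In these 6 promoters the letters of Itgax stood at -178 (NFY), -121 and -41 (ETS core) and -56 (AP-1), counted to the first letter, with -1 as the base before the start. Cd68 had them at -230, -84 and -60 (NFY), -149 and -24 (AP-1), -106 (SP1) and -43 (C/EBP), and Laptm5 at -188 (NFY) and -63 (ETS core). Pparg had C/EBP letters at -215 and -16 and NFY letters at -144 and -22, Alox5 had SP1 letters at -35, and Siglecf had the ETS core at -22. NFY letters were thus present in 4 of the 6, besides those of myeloid factors. A match of letters is a description and not a measured binding site.

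The next 3 promoters show the other ends of the landscape. Sp4 (chr12:118301441-118301690, minus strand) had the highest level of all TSS peaks, Dazl (chr17:50293621-50293870, minus) is a germ line gene with an open TSS, and Cd5l (chr3:87357631-87357880, plus) is a gene of other resident macrophages whose TSS was in none of the 6 lists.
Sp4: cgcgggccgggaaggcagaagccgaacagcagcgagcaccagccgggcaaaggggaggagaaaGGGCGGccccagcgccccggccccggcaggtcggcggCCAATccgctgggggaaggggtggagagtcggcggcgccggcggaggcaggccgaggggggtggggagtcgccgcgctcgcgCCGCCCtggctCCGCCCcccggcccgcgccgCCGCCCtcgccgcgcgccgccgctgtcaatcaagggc
Dazl: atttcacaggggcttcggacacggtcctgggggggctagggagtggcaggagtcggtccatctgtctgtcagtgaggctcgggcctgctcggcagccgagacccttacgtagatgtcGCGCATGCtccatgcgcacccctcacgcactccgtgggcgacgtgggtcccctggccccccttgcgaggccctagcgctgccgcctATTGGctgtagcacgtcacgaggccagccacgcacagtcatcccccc
Cd5l: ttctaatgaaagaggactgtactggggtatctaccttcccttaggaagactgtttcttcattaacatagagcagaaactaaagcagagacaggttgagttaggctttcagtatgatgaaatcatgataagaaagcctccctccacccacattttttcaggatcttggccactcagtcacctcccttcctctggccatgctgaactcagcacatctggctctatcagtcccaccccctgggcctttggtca

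The Sp4 stretch held 37 CpG dinucleotides at 80.0% G and C, with SP1 letters at -187, -68, -57 and -37 and NFY letters at -150. The Dazl stretch held 20 CpG, with NRF1 letters at -133 and NFY letters at -47, while the Cd5l stretch held 0 CpG and none of the letters searched.

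The 6 libraries had totals in consensus peaks of 15.5, 23.1, 22.6, 21.6, 8.54 and 20.02 M (1 M is 1e6 counts) for replicates 1 to 6, and their lists held 74654 to 107530 peaks, the fewest in replicate 5. Pearson's r of log2 CPM over peaks, which are not independent replicates, was 0.937 to 0.978 between pairs of libraries. CPM is the count per 1 M of the library's normalized total. Replicate 6 stood apart in its chromosome Y counts, with 0.0118% of counts against 0.0226 to 0.0272% in the other replicates, and 28 of 81 chromosome Y peaks at a count of 0 against 0 to 3 in the others. In the WT_LPS library numbered 6, 29 of these 81 peaks had a count of 0.

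Of the 184060 consensus peaks on chromosomes 1 to 19, X and Y, 63076 (34.3%) overlapped a peak in all 6 WT_unstimulated lists by at least 1 base. These are called core peaks below. A further 60485 (32.9%) were in none of the 6 lists, having entered the table through other groups. Peaks fell mostly at both ends of this scale, and their median level rose from 0.476 CPM in none of the lists over 2.57 CPM in 5 lists to 8.17 CPM in all 6. The median coefficient of variation (CV, SD divided by mean) over the 6 libraries went from 34.2% to 19.5% and 10.9% in the same sets. Since a call depends on the level, these values describe the sets and were not tested. The core depended on single lists: 10459 peaks were missing only in the list of replicate 5 and 2286 only in that of replicate 1, the libraries with the lowest totals, against 284 to 448 for the others, and 73535 peaks were in all lists when replicate 5 was left out. The part of depth in this was not tested.

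**Figure D1:**
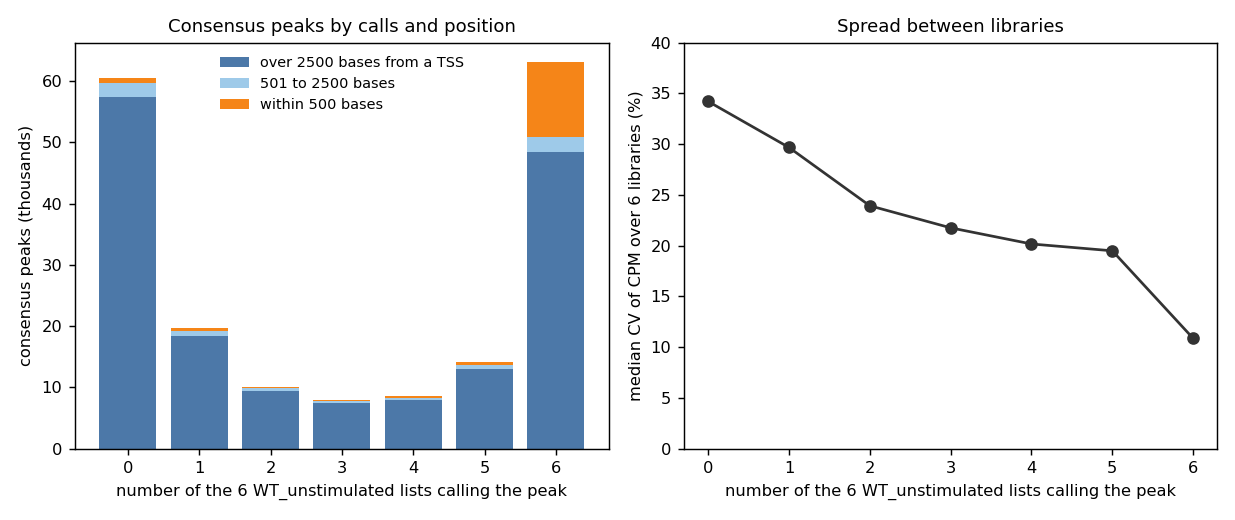
Left, consensus peaks (in 1000s) by the number of WT_unstimulated lists that called them, split by distance to the nearest protein-coding TSS. Right, median CV of CPM over the 6 libraries in percent; peaks in all 6 lists number 63076, hold most of the peaks within 500 bases of a TSS, and have a median CV of 10.9%.

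Most of the baseline open chromatin lay away from promoters. Of the core peaks, 12288 (19.5%) lay within 500 bases of a protein-coding TSS (TSS peaks), 2449 (3.88%) beyond that but within 2500 bases and 48339 (76.6%) farther away (distal peaks). TSS peaks were wider and higher, with a median width of 1409 bases and a median level of 22.2 CPM, against 874 bases and 6.78 CPM for distal peaks. Per length the medians were 15.1 and 7.70 CPM per kb of peak. The replicate spread was smaller at TSS peaks, with a median CV of 7.05% against 12.1%. Core TSS peaks held 33.7% and core distal peaks 48.4% of all counts, and all core peaks together held 84.3 to 85.4% of each library's counts. Among distal core peaks, 49.4% were centred in introns, 3.11% in exons and 47.5% between genes, and 2149 (4.45%) lay within 500 bases of the TSS of a gene of another type, such as a long non-coding RNA.

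The resting WT landscape was largely shared with the other groups as far as calls go. Of its 63076 core peaks, 92.9% were in all 6 lists of AhR-KO_unstimulated, 90.8% in all 6 of WT_LPS and 85.0% in all 6 of AhR-KO_LPS, which were 80.6%, 69.6% and 68.0% of the peaks in all lists of those groups. In all, 51276 (81.3%) were in all 24 lists and 89 were in none of the other 18. Totals in the other groups were 18.9 to 34.6 M, so depth differed too, and its part in these shares was not tested.

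The 4 markers of the cells were open. Spi1, Csf1r, Itgax and Pparg each had a TSS peak in all 6 lists. Their levels in the lowest, median and highest library were 28.95, 32.6 and 34.2 CPM for Spi1 and 10.8, 11.4 and 12.45 CPM for Csf1r. They were 15.8, 17.1 and 17.96 CPM for Itgax and 14.95, 17.4 and 22.2 CPM for Pparg. Per length, Itgax was highest at 19.3 CPM per kb, followed by Csf1r at 14.7, Pparg at 12.7 and Spi1 at 10.2 CPM per kb. The 6 libraries were close together for Csf1r and Itgax, while Pparg varied most.

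At Spi1 and Csf1r the strongest peak was not the TSS peak. At Spi1, 10 core peaks with a sum of 206.7 CPM lay within the gene and 20 kb on each side, some of them nearer to neighbouring genes. Its strongest was chr2:91082030-91085019, 14.1 to 11.1 kb before the TSS used here (91096096), at 60.3 ± 2.49 CPM (SD, n = 6). This peak also covers the annotated 5′ end of the gene (91082390), where the TSS set used holds no Spi1 start. The TSS peak (chr2:91096306-91099473) began 0.21 kb after the TSS and had 32.2 ± 2.11 CPM. At Csf1r (9 core peaks, 153.2 CPM), the strongest was an intronic peak 1.64 to 3.22 kb after the TSS, chr18:61107495-61109074, at 49.2 ± 2.46 CPM. Peaks 15.4 to 13.1 kb before and 13.2 to 15.1 kb after the Csf1r TSS had 29.6 ± 4.02 and 27.9 ± 1.55 CPM. Both exceeded the Csf1r TSS peak, which had 11.5 ± 0.694 CPM, in every library.

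Itgax had 7 core peaks (56.7 CPM in sum), and its TSS peak (chr7:128128893-128129776, 17.1 ± 0.721 CPM) was the highest of them. An Itgax peak over an exon 3.98 kb after the TSS was denser, at 25.5 CPM per kb and 12.7 ± 1.48 CPM. Pparg had 15 core peaks (101.4 CPM in sum) and 3 annotated TSSs. The TSS peak used (chr6:115420807-115422234) had 18.1 ± 2.72 CPM, the peak at the TSS 61.3 to 59.8 kb upstream 12.7 ± 1.29 CPM, and an intronic peak 57.7 to 59.0 kb downstream 15.9 ± 0.981 CPM. So more than 1 Pparg start site was open in the resting cells.

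A gene was called open when a peak within 500 bases of a TSS was in all 6 lists, partly called when the best such peak was in 1 to 5 lists, and closed when none was. By this rule 12843 of 21911 protein-coding genes (58.6%) were open, 1356 were partly called and 7712 (35.2%) were closed. When the peak had to cover the TSS itself, Spi1, Pecam1, Sox18 and Cyp1b1 were no longer open. With a -log10 q of at least 2 in every list, Marco, Gata6, Tcf7, Sox18 and Foxa2 were not, and with 1000 bases in place of 500, Xcr1, Klf1, Col1a1, Acta2, Erg and Cyp1a1 became open. The share of 58.6% is the background for the counts below, which are descriptions of lists chosen by what their genes mark. The lists were set with earlier results of these data known.

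All 24 macrophage core genes were open. They included the transcription factors Spi1, Cebpa, Cebpb, Irf8, Runx1 and Maf, the receptors Csf1r, Csf2ra, Csf2rb, Fcgr1 and Mertk, the integrin Itgam, and lysosomal and surface proteins. The densest TSS peaks were those of Cd68, a lysosomal glycoprotein, with 19.9, 24.2 and 27.03 CPM (lowest, median, highest) and 29.8 CPM per kb, and Laptm5, a lysosomal membrane protein of blood cells, with 37.6, 39.1 and 42.03 CPM and 29.2 CPM per kb. Cebpa, the myeloid C/EBP factor, followed with 61.9, 68.1 and 71.9 CPM and 23.2 CPM per kb, and Lyz2, lysozyme, with 20.3, 23.2 and 28.9 CPM and 22.96 CPM per kb. The lowest density of the list was at Aif1, a macrophage calcium-binding protein, with 4.37 CPM per kb. The median over the list was 15.5 CPM per kb, close to the 15.9 of all open genes and below the 22.5 of 10 housekeeping genes, all open.

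Of 25 alveolar macrophage genes, 21 were open (84.0%), 3 were partly called and 1 was closed. The densest were Atp6v0d2, a proton pump subunit, with 18.2, 19.8 and 22.9 CPM and 36.2 CPM per kb, and Bhlhe40, a transcription factor of alveolar macrophage self-renewal, with 114.8, 118.8 and 124.9 CPM and 32.7 CPM per kb. Tgfbr2, a TGF-β receptor subunit, had 45.3 ± 2.29 CPM (26.6 CPM per kb) and Olr1, a scavenger receptor, 19.2 ± 3.65 CPM (24.5 CPM per kb). Siglecf, the surface lectin used to sort alveolar macrophages, was open at 7.97 ± 0.677 CPM, and Marco, a scavenger receptor, was open at the low level of 2.97 ± 0.989 CPM. The Bhlhe40 peak also covers the start of an antisense RNA, and ATAC-seq does not tell the strands apart.

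The alveolar exceptions had core peaks within 5 kb, as had closed genes of other lineages named below. Fabp4, a lipid chaperone, was called in 2 lists at 1.63 ± 0.353 CPM, with a core peak of 16.7 CPM at 4.48 kb from the TSS. Ear1, an eosinophil-type ribonuclease, was called in 5 lists at 1.22 ± 0.367 CPM, with a core peak of 12.1 CPM at 1.16 kb. F7, coagulation factor VII, was called in 3 lists at 5.65 ± 1.22 CPM, next to a core peak of 35.6 CPM at 1.496 kb. Krt79, a keratin, had no consensus peak at its TSS, and its nearest core peak, at 4.73 kb, had 3.202 CPM.

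Many alveolar and macrophage genes had several distal core peaks, each assigned to the nearest protein-coding TSS. The median was 7 per alveolar gene and 4.5 per macrophage core gene, against 1 per gene over all protein-coding genes and 1 over the housekeeping list. At least 1 such peak was present for 96.0% of alveolar, 87.5% of macrophage core, 50% of housekeeping and 53.8% of all genes. Other lists were also high, with 90.9% of mesenchymal, 86.7% of dendritic cell and 85.7% of stem and progenitor genes, the last with a median of 6. The highest counts in these lists were 41 for Maf (459.2 CPM in sum), 36 for Runx1 (444.4 CPM), 32 for Bhlhe40 (562.7 CPM) and 31 for Tgfbr2 (440.5 CPM). Counts of this kind grow with the distance to neighbouring genes, which was not corrected for.

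**Figure D2:**
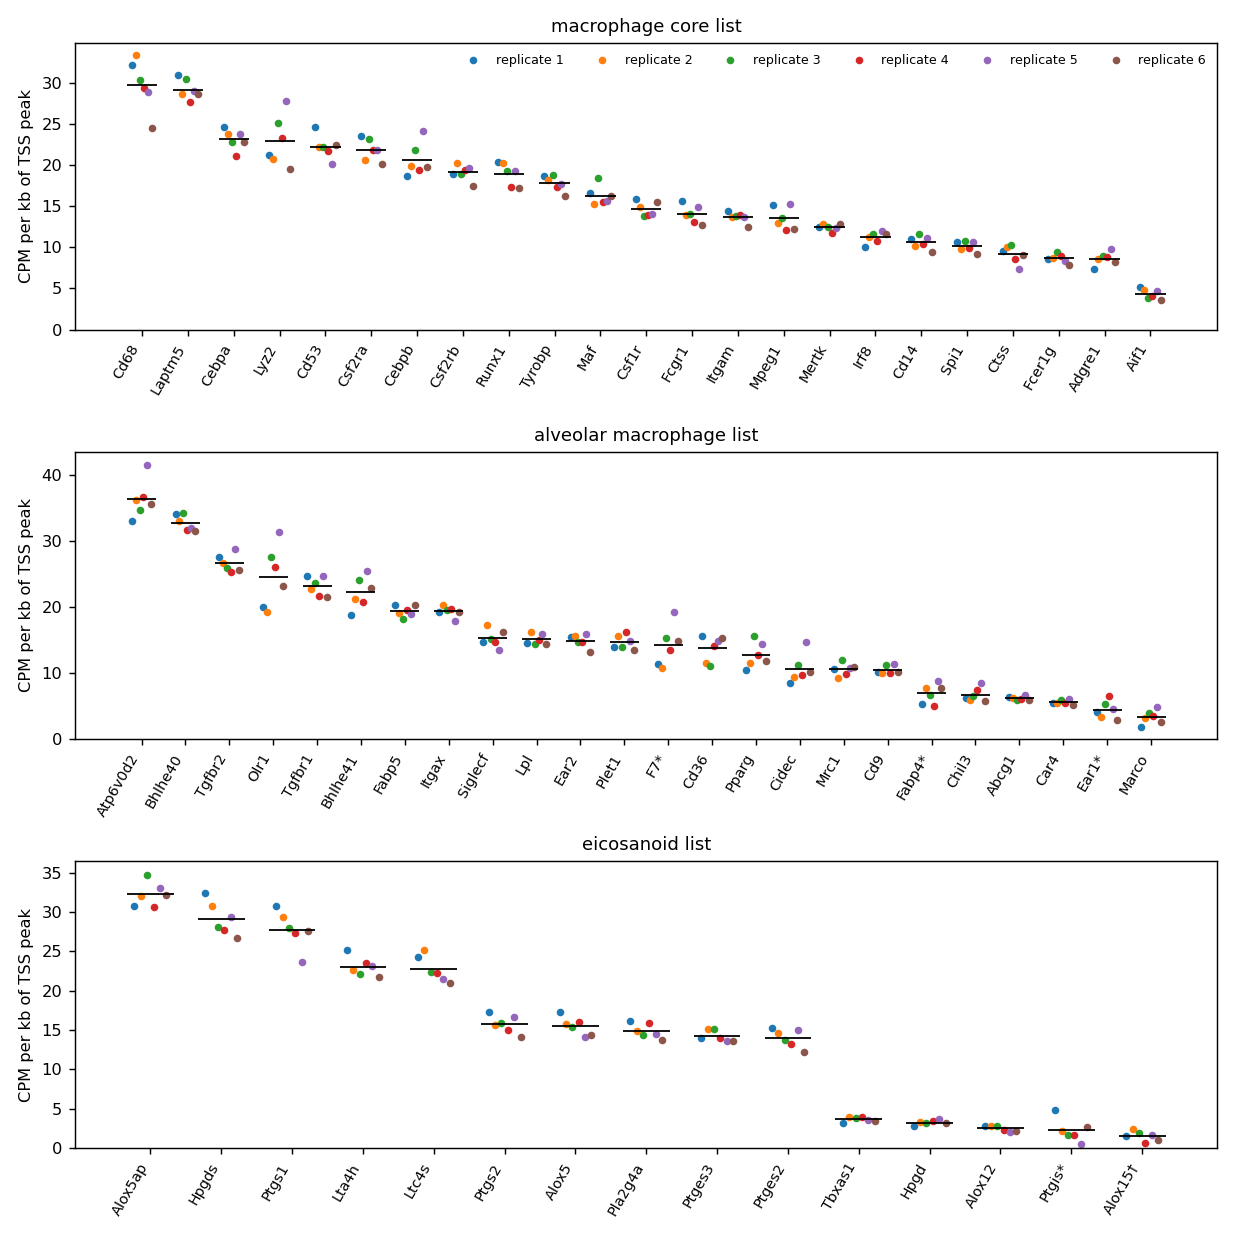
CPM per kb of the TSS peak in each of the 6 WT_unstimulated libraries (points, coloured by replicate) with their mean (line) for the macrophage core, alveolar macrophage and eicosanoid lists. An asterisk marks partly called and a dagger closed genes; Krt79 and Ptges, with no consensus peak at the TSS, and 1 macrophage core gene are not drawn. Cd68, Atp6v0d2 and Alox5ap lead the 3 lists, and Aif1, Marco and Alox15 end them.

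Genes of eicosanoid synthesis were mostly open at rest, 13 of 16 (81.25%). Eicosanoids are lipid mediators made from arachidonic acid, which Pla2g4a, cytosolic phospholipase A, sets free. Pla2g4a was open at 24.9 ± 1.59 CPM, with 13 distal core peaks of 257.6 CPM in sum. Of the cyclooxygenases, Ptgs1 (COX-1) had 33.2, 38.9 and 43.1 CPM and the inducible Ptgs2 (COX-2) 14.1, 15.8 and 17.3 CPM, without overlap between the genes. Their densities were 27.8 and 15.8 CPM per kb.

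Downstream, Hpgds, which makes prostaglandin D, was open with 28.4, 30.6 and 34.5 CPM (29.1 CPM per kb), and Tbxas1, thromboxane synthase, at 10.8 ± 0.879 CPM. Of the prostaglandin E synthases, Ptges2 and Ptges3 were open, while Ptges, the inducible enzyme, was closed, with no consensus peak at the TSS and the nearest core peak 21.6 kb away. Ptgis, prostacyclin synthase, was called in 1 list only, at 0.493 ± 0.317 CPM. Hpgd, which degrades prostaglandins, was open at 5.15 ± 0.478 CPM.

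All 4 genes of the leukotriene branch were open. Alox5ap, which presents arachidonic acid to 5-lipoxygenase, had 26.8, 27.98 and 30.3 CPM and the highest density of the eicosanoid list, 32.2 CPM per kb. Alox5, 5-lipoxygenase, had 36.8, 40.8 and 45.4 CPM and 15.5 CPM per kb. Lta4h, leukotriene A hydrolase, had 45.3 ± 2.38 CPM and Ltc4s, leukotriene C synthase, 73.8 ± 5.34 CPM, in a peak that also covers the start of an antisense RNA. Of the other lipoxygenases, Alox12 was open at 4.14 ± 0.579 CPM and Alox15, typical of peritoneal and IL-4 treated macrophages, was closed at 0.749 ± 0.316 CPM.

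In the AhR pathway, 6 of 7 genes were open. Tiparp, a target gene that feeds back on AhR, was the densest with 86.1, 88.96 and 92.6 CPM and 39.5 CPM per kb. The partner protein Arnt had 27.4 ± 0.552 CPM and Ahr itself 22.5 ± 1.66 CPM, with 25 distal core peaks of 249.9 CPM in sum. The target genes Nqo1, Ahrr (the AhR repressor) and Cyp1b1 were open at 19.9 ± 1.93, 10.97 ± 1.37 and 11.4 ± 2.07 CPM. Cyp1a1, the classical target, was called in 1 list at 1.18 ± 0.333 CPM.

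Of 15 LPS-inducible genes, 11 were already open in unstimulated cells, 2 were partly called and 2 were closed. Ccl2, a monocyte chemokine, was the densest with 20.3, 22.9 and 24.1 CPM (29.1 CPM per kb), followed by Ptgs2, Il12b and Irf1. Tnf was open at 23.01 ± 1.37 CPM. Il1b and Ifnb1 were called in 4 lists each, at 2.73 ± 0.687 and 3.79 ± 0.811 CPM. Ccl5, a T cell chemokine, was closed at 0.3103 ± 0.0798 CPM, and Il10 had no consensus peak at the TSS.

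Genes of other resident macrophages were divided, with 10 of 18 open, 2 partly called and 6 closed. Nr1h3 (LXRα), a lipid-sensing nuclear receptor, was open with 12.3, 13.6 and 14.9 CPM (16.3 CPM per kb), and Id3, P2ry12, Cx3cr1, the osteoclast genes Acp5, Nfatc1, Dcstamp and Ctsk, and Gata6 were open too. Closed were the Kupffer cell and splenic genes Clec4f, Vsig4, Timd4 and Cd5l, the microglial factor Sall1, and Ocstamp, a fusion protein of osteoclasts. The nearest core peak was 142 kb from Timd4, 129 kb from Sall1, 36.4 kb from Vsig4 and 29.3 kb from Clec4f. It was closer at Cd5l, at 6.25 kb, and at Ocstamp, at 1.42 kb with 9.41 CPM.

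**Figure D3:**
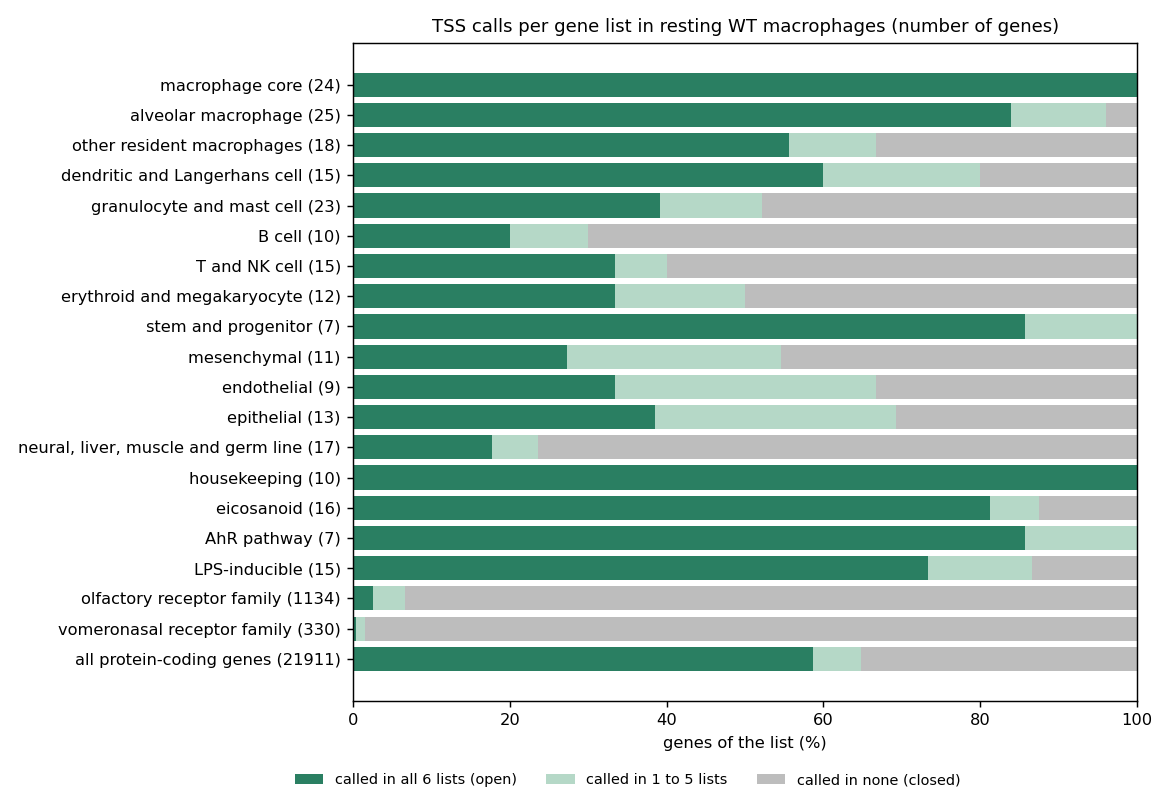
Share of the genes of each list (percent; number of genes in brackets) with an open, partly called or closed TSS in the 6 WT_unstimulated lists. Macrophage core and housekeeping genes are all open, and the B cell, neural and receptor families are mostly closed.

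Genes of other blood lineages were open less often in number, 29 of 75 (38.7%), and those of lineages outside blood in 14 of 50 (28%). The 75 genes are the dendritic, granulocyte and mast cell, B cell, T and NK cell, and erythroid and megakaryocyte lists. Stem and progenitor genes, with 6 of 7 open, are not among them. All libraries are bulk, and in them a weakly open site in all cells and an open site in a few cells cannot be told apart. Of lymphocyte genes, Cd79a, Pax5 and Ms4a1 of B cells and Cd3d, Cd3e, Cd3g, Cd4, Cd8a, Lck and Zap70 of T cells had no consensus peak at the TSS. The same held for Mpo, Elane, Prtn3 and Ly6g of neutrophils, Epx and Prg2 of eosinophils, Cpa3 and Ms4a2 of mast cells and Gata1, Klf1 and Hba-a1 of erythroid cells. Some of these genes had a core peak farther off, 0.706 kb from the TSS of Klf1 (16.7 CPM), 1.13 kb from that of Elane (6.26 CPM), 1.18 kb from that of Lck (9.03 CPM) and 1.63 kb from that of Ms4a1 (12.54 CPM).

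The open genes of other blood lineages included some at high density. Gata3, a T cell transcription factor, had 51.8, 52.4 and 54.7 CPM and 33.2 CPM per kb, the highest density of all lineage lists other than the alveolar one. Also open among T and NK cell genes were Il7r, Klrb1c, Eomes and Tcf7, and among B cell genes Ebf1, at 7.61 ± 0.796 CPM, and Cd22, at 3.21 ± 0.466 CPM. Of granulocyte and mast cell genes, 9 of 23 were open, led by Mmp8, a collagenase (16.1 ± 1.07 CPM, 24.4 CPM per kb), and S100a8, a calprotectin subunit (20.2 ± 1.52 CPM, 20.6 CPM per kb). The others were Cxcr2, Camp, S100a9, Gfi1, Kit, Csf3r and Gata2, at 2.64 to 11.4 CPM per kb.

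Dendritic cell genes were open in 9 of 15, led by Tcf4, H2-DMb2, Irf4 and Zbtb46, and the others were Batf3, Siglech, Flt3, Ciita and H2-Ab1. Xcr1, Clec9a and Itgae had no peak at the TSS, although core peaks of 12.3, 19.6 and 29.3 CPM lay 0.892, 1.02 and 2.196 kb from it. Of 12 erythroid and megakaryocyte genes 4 were open, Tal1, Pf4 and Epor among them. Stem and progenitor genes were open in 6 of 7, Cd34, Meis1, Hlf, Gfi1b, Myb and Mecom, with Cd34 at 17.8 ± 1.57 CPM and Meis1 at 38.8 ± 4.57 CPM.

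Outside blood, open genes were few and of low density. Mesenchymal Pdgfra, Pdgfrb and Twist1, endothelial Pecam1, Kdr and Sox18, and epithelial Scgb1a1, Epcam, Cdh1, Foxa1 and Foxa2 were open. The median density of the open genes was 4.88, 5.09 and 5.20 CPM per kb in these 3 lists, against 15.9 for all open genes. Pecam1, the densest of them at 13.4 CPM per kb, shares its peak with the start of Milr1, a gene of myeloid and mast cells. Collagen genes Col1a1 and Col3a1 and the surfactant gene Sftpc had no consensus peak at the TSS.

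Of 17 genes of neurons, liver, muscle and the germ line, 3 were open. Dazl, an RNA-binding protein of germ cells, had 16.8, 18.002 and 21.95 CPM and 28.9 CPM per kb, a density above 82.1% of TSS peaks. Syn1, of synapses, and Actn2, of muscle, had 8.49 ± 0.6304 and 8.59 ± 1.94 CPM. Dazl has the CpG-rich promoter printed above. Among the receptor families of the nose, 29 of 1134 olfactory receptor genes and 1 of 330 vomeronasal receptor genes were open.

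Promoter CpG content was set beside the open calls as a description, with no test. A promoter was CpG-rich when the 500 bases around the gene's 5′ end had at least 50% G and C and at least 0.6 of the CpG dinucleotides expected from them. An open call could rest on another TSS of the gene. At Spi1, Csf1r and Pparg the scored 5′ end was not the TSS whose peak was used. The counts thus describe genes, and the CpG content of the open TSS itself was not tested. Over all genes, 9166 of 10425 with a CpG-rich 5′ end (87.9%) and 3677 of 11486 with a CpG-poor one (32.01%) were open. Of the macrophage core genes 20 were CpG-poor by this score, and all 20 were open, as were 12 of 16 CpG-poor alveolar genes. The share was 22 of 66 (33.3%) for CpG-poor genes of other blood lineages and 7 of 34 (20.6%) for those outside blood, while of CpG-rich genes 7 of 9 and 7 of 16 were open. Among epithelial genes the order was the opposite, with 1 of 4 CpG-rich and 4 of 9 CpG-poor genes open. The 3 open genes of neurons, muscle and germ line were all CpG-rich, and the 10 CpG-poor genes of that list were all closed.

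None of the 10 highest TSS peaks was at a gene of the macrophage core or alveolar lists. Sp4, a GC-box binding transcription factor, had 215.6, 229.3 and 241.6 CPM in the lowest, median and highest library and 131.2 CPM per kb (chr12:118300898-118302641). Next came Hjurp, a centromere histone chaperone (174.0 ± 9.36 CPM), Crlf2, a subunit of the TSLP receptor (173.5 ± 8.27 CPM), Tle1, a corepressor (171.5 ± 6.44 CPM), and Pja2, a ubiquitin ligase (168.1 ± 11.1 CPM). The other 5 of the first 10 were Ppp2r3d, Ctsz (cathepsin Z, 163.9 ± 4.50 CPM), Klf13, the peak of B430305J03Rik and Rap2b, and Rap2a (153.8 ± 8.41 CPM). By CPM per kb the first 5 were Sp4, Pja2, Pex2, Zfp317 and Khsrp, at 131.2 to 117.1. All of these peaks were in all 24 lists, and no library without transposase was part of the files used, so DNA copy number at them was not tested.

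Away from TSSs, the highest peak, chr16:42874865-42876368, lay 31284 bases from the TSS of Zbtb20, a zinc finger gene, with 187.2, 200.6 and 214.8 CPM and 133.1 CPM per kb. It lies at the start of the long non-coding RNA 4932412D23Rik. Of the 10 highest distal peaks, 6 lay at the start of a gene not typed as protein-coding in the annotation used. Among them were those nearest Zfp958 (141.5 ± 12.2 CPM), Smim15, Gm42906, Afdn and Gpc5. The Smim15 peak lay at the start of Zswim6, typed there as a processed transcript. The Gpc5 peak lay at Mir17hg, the host gene of a microRNA cluster. The others of the 10 were an intronic peak of Slc2a1, the glucose transporter GLUT1, 16074 bases from its TSS (113.4 ± 3.76 CPM), an intronic peak of Fat3 (103.7 ± 5.57 CPM), a peak 9350 bases from Zc3h12a, an RNase that degrades cytokine mRNAs (101.9 ± 5.74 CPM), and an intronic peak of Gpa33 (101.6 ± 5.77 CPM). Per length, the peak nearest Zbtb20 was followed by chr1:137751126-137752028, 423239 bases from the TSS of Ptprc, the common leukocyte antigen CD45, with 75.6, 83.9 and 91.2 CPM and 93.3 CPM per kb, and by peaks nearest Catspere2, Vamp4 and Zfp958. The 200 bases at the centre of both leading peaks are printed on the plus strand of GRCm38.p6, chr16:42875516-42875715 and chr1:137751477-137751676, because they differ in letters.
Zbtb20 distal: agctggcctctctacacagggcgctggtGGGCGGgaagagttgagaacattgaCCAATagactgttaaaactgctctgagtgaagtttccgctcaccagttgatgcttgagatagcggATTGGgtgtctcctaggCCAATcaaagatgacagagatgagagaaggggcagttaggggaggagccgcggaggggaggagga
Ptprc distal: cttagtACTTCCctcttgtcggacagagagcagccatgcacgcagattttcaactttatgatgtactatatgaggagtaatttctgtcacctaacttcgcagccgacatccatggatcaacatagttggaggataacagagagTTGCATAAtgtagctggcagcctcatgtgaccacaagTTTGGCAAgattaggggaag

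The stretch nearest Zbtb20 held SP1 letters once and NFY letters 3 times. The stretch nearest Ptprc held the ETS core once and C/EBP letters at 2 places. In 200-base windows of all distal core peaks, the SP1 letters were found in 4.80%, NFY in 22.7%, the ETS core in 28.2% and C/EBP in 12.5%.

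By the summed level of all distal core peaks assigned to a gene, the first was Zfp386 (92 peaks, 989.7 ± 29.9 CPM). It borders the immunoglobulin heavy chain locus, in which 89 of these 92 peaks lie. Next were Adgrl2, an adhesion receptor (75 peaks, 963.2 ± 12.8 CPM), Pde4d, a cyclic AMP phosphodiesterase (72 peaks, 847.9 ± 15.8 CPM), Zfp608 (61 peaks, 656.3 ± 18.4 CPM), and Klf6, a zinc finger factor of macrophage activation (44 peaks, 624.5 ± 11.7 CPM). Inhba, the activin A subunit, had 60 peaks and 623.3 ± 17.2 CPM, and Tomm20, Cited2, Smim15 and Kctd12 completed the first 10. Of the macrophage and alveolar lists, Bhlhe40 ranked 12, Maf 26, Runx1 29, Tgfbr2 30 and Cebpb 36 of all genes.

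Letters of myeloid and of other factors differed in frequency between distal core peaks and distal peaks called in none of the lists. In 300 bases at the peak centre, GAGGAAGT (the PU.1 letters, which contain the ETS core) was found in 9.60% of 48339 distal core peaks, in 4.89% of 57393 distal peaks called in none of the lists and in 7.72% of all distal peaks. The ETS core was found in 37.3%, 27.3% and 33.2%, TGTGGTT (RUNX) in 11.8%, 9.98% and 11.2%, and C/EBP in 17.7%, 15.7% and 16.4%. AP-1 went the other way, with 16.3%, 26.3% and 19.1%. The median width was 874 bases for distal core peaks and 313 bases for distal peaks in none of the lists. The same window thus covered a smaller part of a core peak, and the part of width in these shares was not tested. Core TSS peaks differed, with SP1 in 55.0% and NRF1 in 2.64%, against 6.77% and 0.455% at distal core peaks, and PU.1 in 2.64%. Their median G and C content was 63.3% against 46.7%.

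Within the distal core, the PU.1 letters became more frequent with the level per length. Across 4 quartiles by CPM per kb, from 1.08 to 133.1, they were found in 5.31, 8.79, 11.03 and 13.3% of peaks. Over the same quartiles the ETS core went from 28.1 to 45.1%, RUNX from 9.98 to 13.4%, C/EBP from 15.9 to 19.9% and AP-1 from 14.1 to 19.3%, while the median G and C content moved from 45.3 to 48.0%. These shares were not tested, and the part of base composition in them was not tested.

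**Figure D4:**
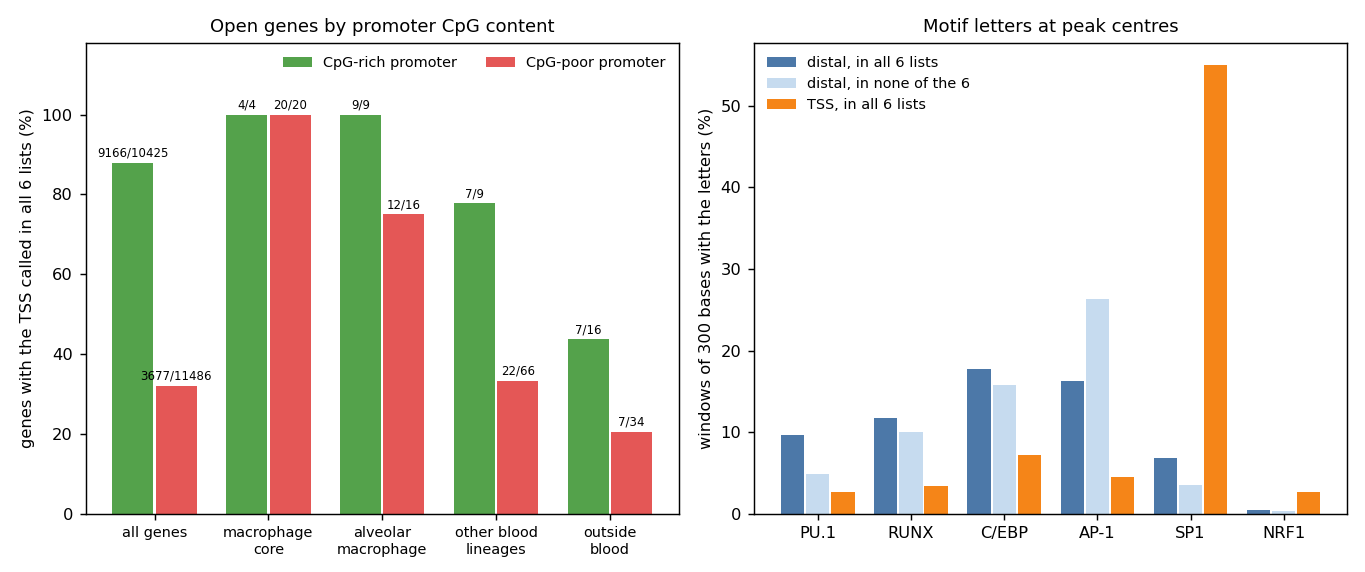
Left, genes with a TSS called in all 6 WT_unstimulated lists (percent, counts above bars) with CpG-rich or CpG-poor promoters, for all genes and 4 groups of lists. Promoters were scored at the gene's 5′ end, which need not be the TSS called. Right, windows of 300 bases at peak centres that hold the letters of a motif (percent) for distal peaks in all 6 lists, distal peaks in none and TSS peaks in all 6; PU.1 letters are at 9.60% in distal core peaks and SP1 letters at 55.0% in core TSS peaks.

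Which baseline TSS peaks of these lists differed in LPS cultures was tested with edgeR's quasi-likelihood test, and a differentially accessible region (DAR) had to differ by 1.5-fold or more, its adjusted p not exceeding 0.05. Of 174193 peaks tested, 25.4% were higher and 21.6% lower in WT_LPS than in WT_unstimulated (47% in either direction). At 14607 TSS peaks the shares were 5.11% higher and 7.61% lower (12.7% in either direction), and the median log2 fold change was -0.07. The comparison with AhR-KO below uses the same WT_unstimulated libraries, so that the results of both share them.

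Of 24 macrophage core genes 1 was higher and 1 lower in LPS cultures, a share near that of all TSS peaks. The summed level of their TSS peaks was 693.4 to 749.1 CPM unstimulated and 604.8 to 671.2 CPM with LPS, without overlap. Csf1r, at 10.8, 11.4 and 12.45 CPM unstimulated, had 15.6, 18.7 and 19.6 CPM with LPS, a log2 fold change of 0.66 ± 0.071 (SE), adjusted p = 3.02e-10. Mertk, a receptor for dead cells, fell by 0.60 ± 0.067 on the log2 scale (adjusted p = 9.26e-10). The groups did not overlap for either gene. Spi1 was at -0.06 ± 0.083 (adjusted p = 0.518).

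Of 24 alveolar genes tested, 10 were lower, 0 higher and 14 not past the threshold, with a median log2 fold change of -0.55 and values from -1.42 to 0.36. Plet1, a GPI-anchored surface protein, went from 9.24, 9.83 and 11.02 CPM to 3.08, 3.74 and 4.42 CPM, without overlap, with a log2 fold change of -1.42 ± 0.107 (adjusted p = 4.22e-14). Ear2, a ribonuclease, went from 43.7, 50.2 and 52.7 to 21.6, 24.7 and 29 CPM, without overlap (-1.001 ± 0.078, adjusted p = 3.03e-13). The third by p was Mrc1, the mannose receptor, with 10.8, 12.4 and 14.1 against 4.38, 5.19 and 7.401 CPM, also apart (-1.15 ± 0.098, adjusted p = 1.02e-12). The others were Cidec, Ear1, Siglecf, Cd36, Bhlhe41, Chil3 and Marco, of which Marco overlapped between groups. Pparg itself was at -0.29 ± 0.095, below 1.5-fold (adjusted p = 0.00778). The summed level of the list's 24 TSS peaks was 540.5 to 600.1 CPM unstimulated and 445.8 to 486.5 CPM with LPS, while that of 10 housekeeping genes was 373.9 to 407.0 and 367.2 to 431.7 CPM.

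Eicosanoid genes changed in both directions, with 2 higher and 5 lower of 14 tested. Alox5 had 17.2, 20.8 and 23.9 CPM with LPS, below all unstimulated libraries, with a log2 fold change of -0.97 ± 0.065 (adjusted p = 2.35e-15). Ptgs1, at 14.5, 18.7 and 21.7 CPM, was also apart (-1.05 ± 0.074, adjusted p = 7.74e-15), and Alox5ap, Ltc4s and Hpgd were the other genes that fell. Ptgs2 rose to 27.8, 30.4 and 33.6 CPM, above all unstimulated libraries (0.96 ± 0.066, adjusted p = 3.4e-15), and Alox12 rose by a log2 fold change of 0.70 ± 0.097 (adjusted p = 8.16e-08). None of the 7 AhR pathway genes and none of the 10 housekeeping genes was past the threshold in LPS cultures.

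Of 14 LPS-inducible genes tested, 9 were higher and 1 lower. Acod1, which makes itaconate, went from 8.05, 10.3 and 12.2 to 26.4, 30.4 and 33.6 CPM, without overlap (1.58 ± 0.092, adjusted p = 8.6e-17). Ccl5, closed at rest with 0.198, 0.309 and 0.434 CPM, had 3.32, 6.28 and 8.68 CPM with LPS (4.34 ± 0.264, adjusted p = 5.12e-15), and its peak was in the table only because other groups had it. Il1b, Il6, Cxcl10, Cxcl1, Nos2, Il1a and Ptgs2 were the other genes that rose. Ccl2, the densest of the list at rest, fell from 20.3, 22.9 and 24.1 to 11.8, 12.6 and 12.9 CPM, without overlap (-0.86 ± 0.086, adjusted p = 6.71e-11).

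DARs of LPS cultures also included TSS peaks of other lineages. Of 9 epithelial genes tested 5 were lower and 1 higher, and Scgb1a1, the club cell secretory protein, went from 6.34, 8.03 and 8.79 to 1.801, 2.68 and 3.22 CPM, without overlap (-1.60 ± 0.123, adjusted p = 6.87e-14). Of 7 stem and progenitor genes 3 were lower, and Cd34 went from 15.2, 17.8 and 19.9 to 7.25, 8.38 and 8.63 CPM, also apart (-1.13 ± 0.095, adjusted p = 7.7e-13). Of 6 endothelial genes 3 were lower, and of 12 granulocyte and mast cell genes 1 was higher (Camp, an antimicrobial peptide) and 2 lower (S100a9 and Ngp). The summed level of the epithelial list was 37.2 to 48.2 CPM unstimulated and 24.9 to 30.6 CPM with LPS, and Sftpc, Krt5 and Krt8 had no consensus peak at the TSS.

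In AhR-KO_unstimulated against WT_unstimulated, 9.96% of all peaks tested were higher and 12.6% lower (22.6% in either direction), or 17351 against 22010 peaks, and 2.43% and 4.91% of TSS peaks (7.34% in either direction). The balance turned with another scaling, to 20695 higher against 19372 lower with RLE size factors and 20308 against 19234 with DESeq2. The Ahr TSS peak lies outside exon 2 (chr12:35526681-35526868), which the allele is known to lack, and no consensus peak overlapped that exon, so the peaks do not check the genotype. Of the AhR pathway, 3 of 7 genes were lower and 0 higher. Ahrr, with 9.501, 10.6 and 13.2 CPM in WT, had 2.59, 3.22 and 4.12 CPM in AhR-KO (-1.73 ± 0.106, adjusted p = 7.75e-15). Ahr went from 20.2, 22.2 and 24.5 to 11.5, 13.1 and 15.1 CPM (-0.78 ± 0.077, adjusted p = 3.42e-10), and Cyp1b1 from 9.59, 10.49 and 14.6 to 5.19, 5.92 and 6.43 CPM (-0.96 ± 0.132, adjusted p = 4.02e-07). The groups did not overlap for these 3 genes.

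Of the alveolar list, 5 of 24 genes were higher and 0 lower without AhR, with a median log2 fold change of 0.42. Itgax went from 15.8, 17.1 and 17.96 to 23.97, 29.5 and 30.9 CPM, without overlap (0.72 ± 0.080, adjusted p = 4.2e-09). F7 went from 4.29, 5.65 and 7.67 to 8.24, 10.8 and 13.5 CPM, without overlap (0.92 ± 0.133, adjusted p = 8.33e-07), and Marco, Car4 and Fabp4 were the others, of which Marco and Fabp4 overlapped between groups. The summed level of the list was 614.2 to 775.7 CPM against 540.5 to 600.1 CPM in WT. That of the housekeeping genes was 399.4 to 525.2 against 373.9 to 407.0 CPM, with 0 of 10 genes past the threshold and a median of 0.18, and its part in the alveolar values was not tested.

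The macrophage core had 1 gene higher and 0 lower of 24 in AhR-KO, Cebpb (0.59 ± 0.130, adjusted p = 0.000777), whose groups overlapped and whose call was lost with a replicate term (0.57), and Spi1 was at 0.09 ± 0.083 (adjusted p = 0.404). Of 14 eicosanoid genes 3 were lower and 0 higher. Ptgs1 had 21.02, 21.9 and 25.1 CPM (-0.79 ± 0.075, adjusted p = 1.14e-10), Ptgs2 had 9.33, 10.2 and 11.4 CPM (-0.61 ± 0.071, adjusted p = 1.32e-08) and Hpgds had 18.3, 20.2 and 21.7 CPM (-0.63 ± 0.091, adjusted p = 1.01e-06). All 3 were below all WT libraries. The calls of Ptgs2 and Hpgds were lost with DESeq2 and with RLE size factors, the latter at log2 fold changes of -0.55 and -0.57, which fall short of 1.5-fold.

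Of the LPS-inducible list, Il1a, Il6 and Il1b were higher and Il12b and Ptgs2 lower in AhR-KO, and both lower calls were lost with RLE size factors and with DESeq2. Of 12 granulocyte and mast cell genes tested 6 were lower and 0 higher, S100a9, Ngp, Ltf, Cxcr2, Retnlg and Kit. The summed level of that list was 84.7 to 89.3 CPM in AhR-KO and 96.2 to 119.9 CPM in WT, without overlap, and Mpo, Elane, Prtn3 and Ly6g had no consensus peak. Kit, the stem cell factor receptor, went from 8.94, 11.2 and 12.9 to 3.96, 4.82 and 5.29 CPM (-1.21 ± 0.103, adjusted p = 1.02e-11), and Cd34 from 15.2, 17.8 and 19.9 to 6.96, 8.35 and 10.03 CPM (-1.05 ± 0.096, adjusted p = 5.32e-11). Neither gene overlapped between groups. Cd34 was the only lower gene of the 7 stem and progenitor genes tested, with 0 higher and 6 not past the threshold. The median log2 fold change of that list was 0.07, with values from -1.05 to 0.39. The part of a differing share of other cell types in these values was not tested.

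**Figure D5:**
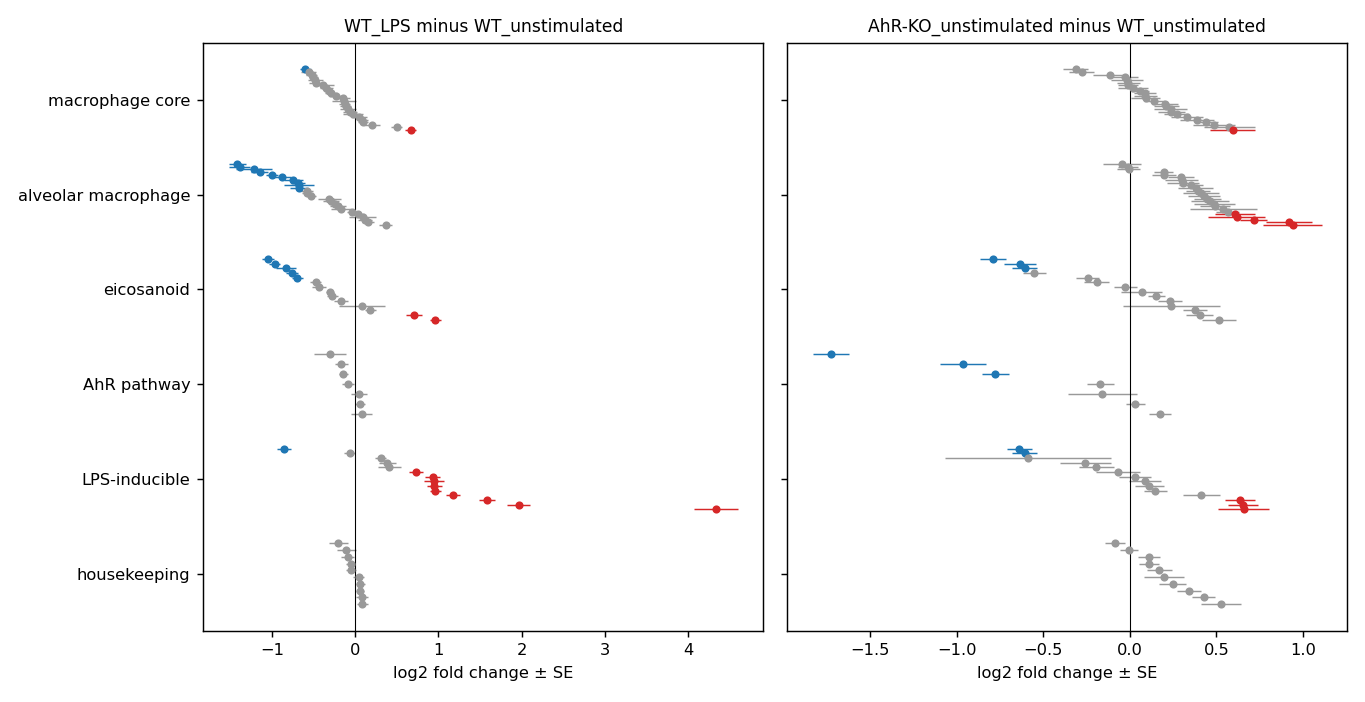
Log2 fold change ± SE at the TSS peak of each tested gene of 6 lists, WT_LPS minus WT_unstimulated (left) and AhR-KO_unstimulated minus WT_unstimulated (right). Red points are higher and blue points lower DARs, grey points are not past the threshold; 10 of 24 alveolar genes are blue on the left, and Ahrr at -1.73 is the lowest point on the right.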

How the data were processed

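Open chromatin was measured by ATAC-seq in 24 libraries, of which the 6 WT_unstimulated ones are described. The authors ran nf-core/atacseq 1.2.1 on mm10, which called broad peaks with MACS2 in each library and merged them, and deposited raw fragment counts per consensus peak (featureCounts 2.0.1, minimum overlap fraction 0.2) and 1 peak list per library with the fold enrichment and -log10 q-value of each peak. The lists were used for calls only. Here counts became CPM with TMM factors of edgeR 4.0.16 (R 4.3.3), and TSSs came from GENCODE M21 on GRCm38, whose chromosome lengths were compared with the files. A core peak was overlapped by all 6 lists, and among several TSS peaks of a gene the highest was used.

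Both comparisons were fitted with edgeR's quasi-likelihood test to all 24 libraries, with group as the only term, after filtering low counts (174193 peaks), with Benjamini-Hochberg adjustment. Totals of 8.54 to 34.6 M set the precision. On simulated data for the LPS comparison with 155755 peaks, calls were made for 93 of 100 peaks given a 2-fold change and for 99 of 100 given a 4-fold change, with 10 calls among unchanged peaks. The simulation gave every peak the same spread and changed no weak peaks. It also changed far fewer peaks than were called in the real comparison. These rates thus do not give the sensitivity or the false calls in the real libraries. The closest pair of WT_unstimulated libraries differed by a chi-square of 1.26 per peak, where sampling noise gives 1. Each library was counted as 1 replicate by its label, since such a value cannot tell separate animals from repeats of 1 culture.

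Members and gene lists were chosen with earlier results of these data known. Named were Spi1, Csf1r, Itgax and Pparg, the 10 highest TSS and distal peaks, the first 5 of each by CPM per kb, the 10 genes with the highest summed distal level, in each list the 4 densest genes and those against the list, and up to 3 DARs of the smallest p per direction and list; a few genes are counted in their lists but not reported here singly, and others named in passing were chosen after their values were seen. Alternatives were another scaling, DESeq2 1.42.0, other windows, thresholds and filters, a replicate term, and leaving out libraries.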

Additional observations from a re-analysis of the deposited data

Results flagged for a closer look

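In 181 series of 6 values, the highest or lowest WT_unstimulated library was compared with the rest by Dixon's test, which picks out about 1 in 20 by chance, and 9 (4.97%) were picked out. Replicate 1 stood apart in 4 of them, replicate 6 in 3, and replicates 3 and 4 in 1 each. None of them was in replicate 2 or 5, and causes were not tested.

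Replicate 6 was low in its share of counts on chromosome Y, 0.0118% against 0.0226 to 0.0272% in the others. At TSS peaks, replicate 6 was low at Itgam, the CD11b integrin, with 22.7 CPM against 24.97 to 26.3 CPM. It was low at Kdr, an endothelial growth factor receptor, with 5.53 against 7.25 to 7.90 CPM.

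Replicate 1 was high at Gata2, a factor of stem and mast cells, with 7.71 against 5.81 to 6.21 CPM, and low at Il6, a cytokine, with 7.12 against 7.90 to 8.03 CPM. It was also high at the TSS peak of Tle1, with 184.3 against 166.2 to 170.5 CPM, and at the distal peak nearest Mbp, with 77.1 against 66.6 to 69.8 CPM. Replicate 3 was low at Pf4, a platelet chemokine, with 10.7 against 12.5 to 13.4 CPM. Replicate 4 was low at the distal peak nearest Phf19, with 57.2 against 64.1 to 67.9 CPM.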

How the results depend on the processing

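The balance of AhR-KO DARs turned with the scaling, from 44.1% higher with TMM to 51.7% with RLE factors and 51.4% with DESeq2, while no single fold change followed changed sign. The number of peaks called in all 6 lists fell from 63076 to 27952 when a list peak had to cover at least 50% of the consensus peak, was 60333 with a -log10 q of at least 2, and was 63360 to 73535 with 1 library left out, the highest without replicate 5. With the TSSs of all annotated genes, 23.1% of core peaks were at a TSS and 69.3% distal. By CPM per kb, 2 of the 10 highest TSS peaks and 2 of the 10 highest distal peaks were shared with the ranking by CPM. In 200-base windows the letters were found in 7.24% (PU.1), 11.8% (AP-1), 12.5% (C/EBP) and 8.38% (RUNX) of distal core peaks. When the peak had to cover the TSS itself, 23 of 24 macrophage core genes were open, without Spi1. With a call in at least 5 lists, Ear1, Spic, Tmem119, Ltf, Itga2b, Erg and Sox17 became open.

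Of 84 fold changes followed, 77 kept their call under all alternatives run. Calls were lost for Cd22 in LPS cultures (RLE, DESeq2, without replicate 5), Hoxa9 (without replicate 5), and in AhR-KO for Cd207 (DESeq2, adjusted p = 0.0861), Il12b, Ptgs2 and Hpgds (RLE, DESeq2) and Cebpb (replicate block, 0.57 on the log2 scale). The replicate block gave 82150 DARs for LPS (81903 without it) and 39953 for AhR-KO (39361 without it). Deviations from group means of same-numbered libraries correlated at 0.04 to 0.29 between WT_unstimulated and WT_LPS. There, 4 of 6 correlated best with their own number. With AhR-KO_unstimulated, which came from other animals, the values were -0.10 to 0.05. The WT_unstimulated and WT_LPS libraries numbered 6 also had 28 and 29 of 81 chromosome Y peaks at a count of 0. Whether same-numbered WT libraries shared an animal was not tested, and the main fit treated all libraries as independent. At TSS peaks of the lists RLE gave 34 AhR-KO calls, 29 of them among the 32 with TMM. Depth limits weak peaks most, and replicate 5 had the lowest total.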

Other observations

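The immunoglobulin heavy chain locus, which B cells rearrange, held many open regions in the resting macrophage cultures, an observation made after the values were seen. Its 2.76 Mb on chromosome 12 held 351 consensus peaks, of which 125 were core peaks (45.4 per Mb, against 23.1 per Mb over chromosomes 1 to 19, X and Y), with a median of 7.69 CPM and a highest of 42.1 CPM. Of these, 70 overlapped 1 of the 217 annotated segment genes and 86 were in all 24 lists. The immunoglobulin kappa locus, of 3.17 Mb, held 7 core peaks (2.21 per Mb) and the lambda locus 2. The T cell receptor beta and gamma loci held 22 and 6 core peaks (32.97 and 34.3 per Mb). The B cell genes Cd79a, Pax5 and Ms4a1 had no consensus peak at the TSS. The densities were not tested, and which cells of the cultures carried these open regions was not tested.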
